A study of Mus musculus with 17 samples.

Results

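The genes described here are the 5 MIP-type (macrophage inflammatory protein type) CC chemokines Ccl3, Ccl4, Ccl5, Ccl6 and Ccl9, followed through sorted synovial macrophages of the mouse with and without immune complexes (IC). They were chosen by gene symbol from the 22859 genes of the joint count table, all 5 were found, and all 5 passed the filter on low counts. Macrophages of the synovium, the lining membrane of the joint, had been sorted into LYVE1+CX3CR1+ cells and into MHCII+ cells without (MHCII+CD11c-) and with CD11c (MHCII+CD11c+). All groups, controls included, carried the label Fcgr2b-KO, a knockout of the inhibitory Fc gamma receptor that binds IC. IC were injected into a vein, and cells were collected 8 h later; the study describes its IC as ovalbumin with polyclonal antibodies to it. For this series the labels do not name the antigen or say what the controls received. There were 17 libraries of bulk RNA-seq in 6 groups of 3, apart from the MHCII+CD11c+ IC group with 2. The labels do not say whether libraries of a group came from separate mice, so p-values measure the spread between these libraries, which may in part be technical.

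Libraries held between 2301913 and 7248939 counts. Gene levels are in CPM, each count taken relative to the TMM-scaled size of its library. Counts were assigned to the targeted gene Fcgr2b in every library (167 to 1168), and a table with 1 count per gene does not say which exons they cover. Macrophage markers (6 of 6 in the table) summed to between 4821 and 7405 CPM in LYVE1+CX3CR1+ and MHCII+CD11c- libraries and to between 1430 and 3113 CPM in MHCII+CD11c+ libraries. Conventional dendritic cell markers (5 of 5) summed to between 83.0 and 201 CPM in MHCII+CD11c+ libraries and to between 6.61 and 71.6 CPM in the others. In bulk samples such as these, fewer cells of a type and less RNA per cell cannot be told apart.

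MIP-type chemokines are small secreted proteins that draw leukocytes along a gradient. CCL3 and CCL4 are the classical products of activated macrophages, and CCL5 (RANTES) is best known from T cells, NK cells and platelets. CCL6 and CCL9 (MIP-1 gamma) belong to a rodent branch of the family that myeloid cells express without stimulation. CCL3, CCL5, CCL6 and CCL9 bind the receptor CCR1, and CCL5 also binds CCR3.

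The 5 genes lie on chromosome 11 within 138.9 kb (GENCODE M21, GRCm38). Ccl5 is at 83525778 to 83530518, Ccl9 at 83572919 to 83578636, Ccl6 at 83587882 to 83593087 and Ccl3 at 83647844 to 83649355, all on the minus strand. Ccl4 is at 83662584 to 83664683 on the plus strand. All 5 are protein coding. The whole of Ccl6 (5206 bases) lies inside the noncoding gene E230016K23Rik on the opposite strand. This overlap is of whole genes with their introns, and overlap of their exons was not checked. The study names a stranded library kit, but use of the strand in counting was not given in the sources used here. It is therefore not known whether reads of these 2 genes were kept apart. E230016K23Rik had at most 108 counts in a library, Ccl6 at least 1989.

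Ccl9 and Ccl6, next to each other on the chromosome, were the members that moved most alike, so their promoters are shown side by side. Each runs from 250 bases before to 50 bases after the start of the gene (RefSeq, GRCm38.p6, both on the minus strand, chr11:83578587-83578886 for Ccl9 and chr11:83593038-83593337 for Ccl6), written 5′ to 3′. Capitals mark 4 stretches of at least 8 bases that were identical and aligned between both, 42 bases in all.
Ccl9: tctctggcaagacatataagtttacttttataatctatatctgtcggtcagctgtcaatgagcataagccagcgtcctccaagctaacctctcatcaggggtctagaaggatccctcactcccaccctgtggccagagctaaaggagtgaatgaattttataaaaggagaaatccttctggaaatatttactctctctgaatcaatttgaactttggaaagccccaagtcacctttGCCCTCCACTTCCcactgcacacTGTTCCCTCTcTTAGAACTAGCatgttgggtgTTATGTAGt
Ccl6: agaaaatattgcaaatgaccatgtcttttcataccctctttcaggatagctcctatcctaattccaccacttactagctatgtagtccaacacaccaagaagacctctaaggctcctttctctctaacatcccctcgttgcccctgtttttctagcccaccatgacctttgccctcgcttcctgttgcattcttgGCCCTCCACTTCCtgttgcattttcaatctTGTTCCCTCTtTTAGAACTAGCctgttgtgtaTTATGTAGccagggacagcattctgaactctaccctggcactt

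Over 241 aligned positions the Ccl9 and Ccl6 promoters were 67.6% identical. The longest shared stretch, GCCCTCCACTTCC, began 14 bases before the start of Ccl9 and 55 bases before the start of Ccl6. A stretch of 13 bases in common with the Ccl9 promoter was also found in 61 of the other promoters of the RefSeq table (0.186%). The ETS family core GGAAGT, searched on both strands, lay inside this shared stretch in both genes, was also present in the Ccl3 promoter, and occurred in 23.8% of all promoters of this length. Only the Ccl9 promoter of these 3 held an NF-kB motif (GGGGCTTTCC on its minus strand, 35 bases before the start; 4.50% of all promoters) and the AP-1 motif TGANTCA (53 bases before the start; 7.81%). The same held for TATAAA, found 3 times in Ccl9, with 2 of the matches overlapping each other on opposite strands (13.6% of all promoters). TTGCNNAA (C/EBP, 10.8% of all promoters) and AGAACA (the glucocorticoid receptor, 19.0%) had no match in the 3 windows. A match is a run of letters in this window and not a measured binding site.

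Of the 5 genes, Ccl6 and Ccl9 were abundant in every group, Ccl3 and Ccl4 were at intermediate levels, and Ccl5 was the lowest. Per kilobase of exon, LYVE1+CX3CR1+ controls held 245 ± 47.5 CPM of Ccl6, 204 ± 58.5 of Ccl9, 162 ± 45.8 of Ccl3 and 80.3 ± 22.7 of Ccl4 (mean ± SD, n = 3), and Ccl5 had no count. In MHCII+CD11c- macrophages after IC the same scale gave 2392 ± 1437 for Ccl6, 1075 ± 468 for Ccl9, 152 ± 57.5 for Ccl3, 106 ± 47.0 for Ccl4 and 8.62 ± 2.995 for Ccl5 (n = 3). On this scale Ccl6 and Ccl9 were of the same order as Ccl3 in the first group and many times above it in the second.

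**Figure D1:**
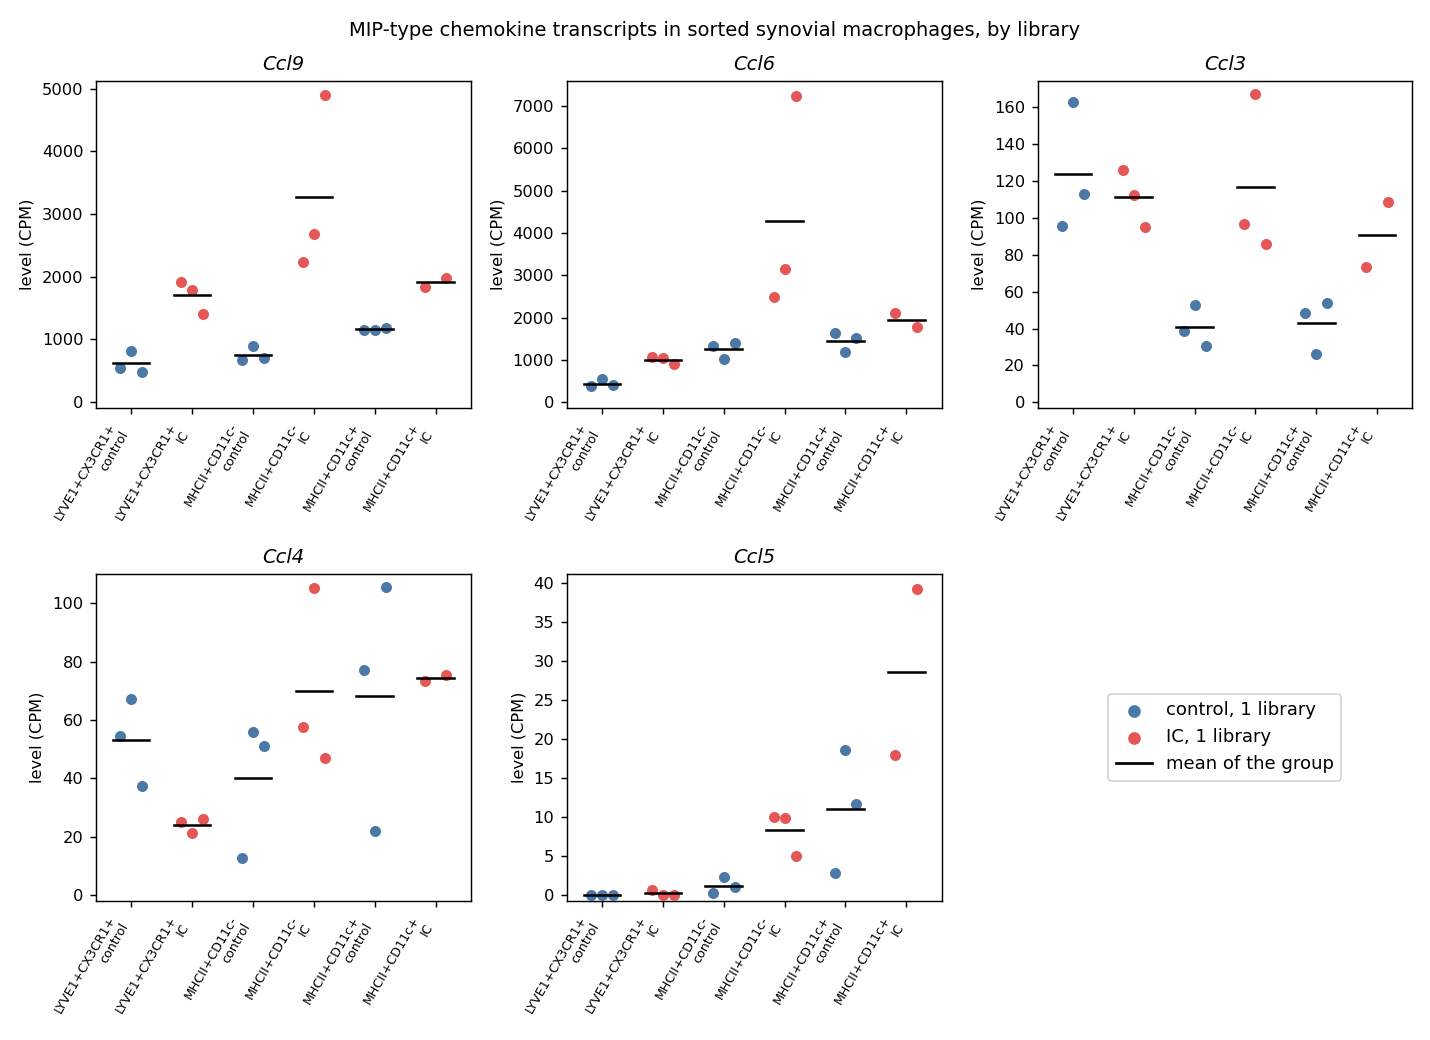
Level of each chemokine transcript (CPM, vertical axis from 0) in each of the 17 libraries, grouped by macrophage subset and treatment. Points are single libraries and black lines are group means. Ccl9 and Ccl6 were highest in MHCII+CD11c- macrophages after IC, where 1 library reached 4899.9 and 7246 CPM, and Ccl5 was at or near 0 in all LYVE1+CX3CR1+ libraries.

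The first question was how each gene changed 8 h after IC. Ccl9 rose 2.74-fold in LYVE1+CX3CR1+ macrophages, and Ccl9, Ccl6 and Ccl3 rose 4.31-fold, 3.43-fold and 2.86-fold in MHCII+CD11c- macrophages. No member passed the test in MHCII+CD11c+ macrophages. Ccl4 and Ccl5 did not pass it in any subset.

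Ccl9, which draws CCR1-bearing myeloid cells, was the member with the smallest p in both subsets where it passed. In LYVE1+CX3CR1+ macrophages the control libraries had 552, 824 and 489.5 CPM and the IC libraries 1921, 1784 and 1406 CPM. Every IC library was above every control library. The log2 fold change was 1.45 ± 0.24 (SE; 95% confidence interval 0.96 to 1.95, adjusted p = 0.00436), and it passed without any single library and under every alternative run (adjusted p between 5.19e-06 and 0.0433).

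Ccl9 of MHCII+CD11c- macrophages had 670.3, 899 and 709 CPM in controls and 2239.6, 2682 and 4899.9 CPM after IC. The lowest IC library was more than double the highest control library, and the IC libraries themselves spread widely. On the log2 scale the change was 2.11 ± 0.24 (95% confidence interval 1.601 to 2.61, adjusted p = 0.000149, between 1.06e-11 and 0.0108 over the alternatives). Without IC library 3, the highest, it was 1.70 (adjusted p = 0.000161).

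Ccl9 of MHCII+CD11c+ macrophages had 1154.5, 1151 and 1184 CPM in controls and 1839 and 1979 CPM after IC. The groups did not overlap, but the log2 fold change of 0.71 ± 0.26 did not pass the test over all genes (95% confidence interval 0.18 to 1.25, adjusted p = 0.719).

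Ccl6, the neighbour of Ccl9 and likewise a CCR1 ligand, had its log2 fold changes in the same order of subsets. No difference in response between subsets passed the test for either gene. In MHCII+CD11c- macrophages it had 1327, 1028 and 1396 CPM in controls and 2480.4, 3152 and 7246 CPM after IC. IC library 3 held more than double the level of either other IC library. Its log2 fold change was 1.78 ± 0.30 (95% confidence interval 1.14 to 2.41, adjusted p = 0.00876) and fell to 1.17 without that library (adjusted p = 0.00519). The call was lost without control library 1 (adjusted p = 0.0591) and when only these 2 groups were fitted (adjusted p = 0.129), with a range of 4.01e-06 to 0.129 over the alternatives.

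In LYVE1+CX3CR1+ macrophages Ccl6 had 384, 538 and 396 CPM in controls and 1068, 1047 and 908 CPM after IC, with no overlap. The log2 fold change was 1.20 ± 0.30 (95% confidence interval 0.57 to 1.83, adjusted p = 0.0669). It passed with DESeq2 (adjusted p = 0.0035) and with only these 2 groups (0.00724), in a range of 0.0035 to 0.235. In MHCII+CD11c+ macrophages Ccl6 had 1629.7, 1184 and 1525 CPM in controls and 2105 and 1779.6 CPM after IC (0.43 ± 0.32, adjusted p = 1).

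Ccl3, a CCR1 ligand that activated macrophages release early, passed in 1 of the 3 subsets. In MHCII+CD11c- macrophages it had 38.6, 52.8 and 30.4 CPM in controls and 96.9, 167 and 86.1 CPM after IC, with no overlap. IC changed it by a log2 fold of 1.52 ± 0.30 (95% confidence interval 0.90 to 2.14, adjusted p = 0.0145). This call rested on single libraries, since it was lost without control library 1 (adjusted p = 0.0938), control library 3 (0.12) or IC library 2 (0.117), in a range of 0.0013 to 0.12.

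In LYVE1+CX3CR1+ macrophages Ccl3 had 95.8, 163 and 113 CPM in controls and 126, 113 and 95 CPM after IC, so the groups overlapped. The log2 fold change was -0.15 ± 0.29 (95% confidence interval -0.76 to 0.45, adjusted p = 0.888), and its sign turned with voom weights and without control library 2. In MHCII+CD11c+ macrophages Ccl3 had 48.5, 26.01 and 53.7 CPM in controls and 73.3 and 108 CPM after IC (1.10 ± 0.32, adjusted p = 0.347). The difference between the IC responses of LYVE1+CX3CR1+ and MHCII+CD11c- macrophages was -1.67 ± 0.42 on the log2 scale and did not pass the interaction test (adjusted p = 0.234, between 0.076 and 0.616 over the alternatives).

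Ccl4, usually made together with CCL3, had in LYVE1+CX3CR1+ macrophages 54.3, 67.3 and 37.4 CPM in controls and 24.9, 21.4 and 26.1 CPM after IC. Every IC library was under every control library, but the log2 fold change of -1.13 ± 0.56 did not pass (95% confidence interval -2.32 to 0.06, adjusted p = 0.384). Among MHCII+CD11c- libraries Ccl4 ranged from 12.8 to 56.0 CPM in controls and from 47.1 to 105 CPM after IC (0.81 ± 0.54, adjusted p = 0.719). Among MHCII+CD11c+ libraries it ranged from 21.9 to 105.5 CPM in controls and had 73.5 and 75.3 CPM after IC (0.14 ± 0.59, adjusted p = 1).

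Ccl5, which binds CCR1 and CCR3, had at most 2 counts in any LYVE1+CX3CR1+ library, so no fold is given for IC in that subset. In MHCII+CD11c- macrophages it had 0.213, 2.30 and 1.003 CPM in controls and 9.98, 9.89 and 4.95 CPM after IC, with no overlap. The log2 fold change of 2.76 ± 0.89 had a wide interval (0.92 to 4.59) and did not pass (adjusted p = 0.209). Ccl5 of MHCII+CD11c+ macrophages had 2.77, 18.6 and 11.7 CPM in controls and 17.9 and 39.2 CPM after IC, with overlap (1.37 ± 0.85, adjusted p = 1).

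As a list, 1 of 5 members passed the test after IC in LYVE1+CX3CR1+ macrophages, where 0.963% of the 15272 genes tested did. In MHCII+CD11c- macrophages 3 of 5 passed, against 0.701% of all genes, and in MHCII+CD11c+ macrophages 0 of 5, against 0.216%. In the last subset edgeR gave 2 members at an unadjusted p under 0.05 (Ccl3 and Ccl9), and DESeq2 and voom called 0. Over all genes, 2159, 1526 and 795 of the 15272 had an unadjusted p under 0.05 by edgeR in these 3 subsets. DESeq2 called 433 of 14855, 286 of 11315 and 74 of 11315 genes, and voom 46, 168 and 97 of 15272. IC and control libraries did not overlap for 3, 4 and 3 members in these subsets, against 21.6%, 17.2% and 23.1% of all genes. The median log2 fold change of the 4 members with a value was 0.52 in LYVE1+CX3CR1+ macrophages (all genes -0.14), and that of the 5 members was 1.78 in MHCII+CD11c- (all genes -0.03) and 0.71 in MHCII+CD11c+ macrophages (all genes 0.01).

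**Figure D2:**
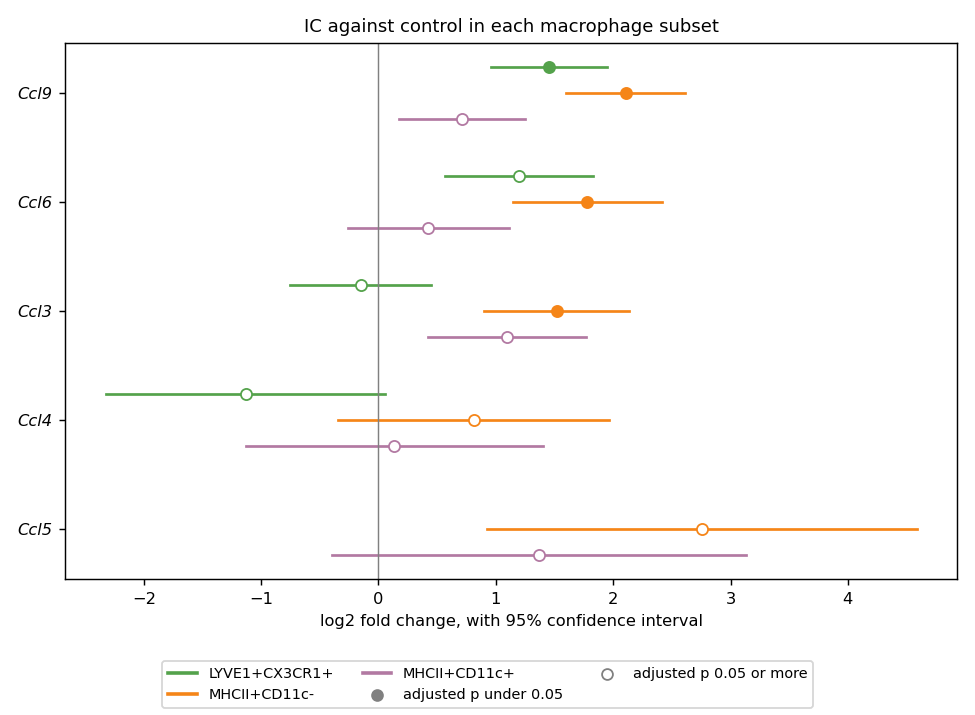
Log2 fold change of each chemokine gene, IC against control, with its 95% confidence interval (horizontal axis), in the 3 macrophage subsets (colours). Filled points had an adjusted p under 0.05: Ccl9 in 2 subsets, Ccl6 and Ccl3 in MHCII+CD11c- macrophages. Ccl5 in LYVE1+CX3CR1+ macrophages is left out because both groups were at the floor.

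The responses of the subsets were also tested against each other. No member passed, where 0.0262% of genes passed between LYVE1+CX3CR1+ and MHCII+CD11c-, 0.0327% between LYVE1+CX3CR1+ and MHCII+CD11c+ and 0.0% between MHCII+CD11c+ and MHCII+CD11c- macrophages. In each of these 3 tests edgeR gave 2 members at an unadjusted p under 0.05, and DESeq2 and voom called 0. Over all genes, 1152, 1225 and 496 of the 15272 had an unadjusted p under 0.05 by edgeR in these tests. For Ccl9 the response with CD11c minus that without it was -1.39 ± 0.36 on the log2 scale (95% confidence interval -2.13 to -0.65), with an unadjusted p of 0.000827 and an adjusted p of 1 by edgeR. The Ccl6 response differed by -1.35 ± 0.44 in the same test (adjusted p = 1). Differences between subsets in which genes passed are therefore not shown to be differences in response.

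Other values moved with IC in MHCII+CD11c- macrophages. The summed LYVE1+CX3CR1+ side markers (5 of 5) ranged from 988 to 1721 CPM in controls and from 1817 to 3293 CPM after IC, and the MHCII markers (4 of 4) from 16325 to 17607 CPM and from 11130 to 11574 CPM. The osteoclast markers in the table (3 of 4) summed to between 6.69 and 15.0 CPM in controls and between 29.3 and 42.4 CPM after IC. The monocyte markers (5 of 5) overlapped, at 235 to 526 CPM and 224 to 471 CPM. The mast cell markers in the table (4 of 5) summed to between 0.177 and 4.35 CPM in controls. In IC libraries 1, 2 and 3 they summed to 0, 24.1 and 2.48 CPM, and library 2 also held the most Ccl3 (167 CPM). The part of these shifts in the Ccl9, Ccl6 and Ccl3 values was not tested. The LYVE1+CX3CR1+ side, MHCII and osteoclast marker sums also moved beside the Ccl9 call in LYVE1+CX3CR1+ macrophages, without overlap of controls and IC libraries. The LYVE1+CX3CR1+ side markers went from between 3552 and 4384 CPM to between 5560 and 6516 CPM, the MHCII markers from between 102 and 156 to between 19.8 and 49.2 CPM, and the osteoclast markers from between 17.3 and 28.1 to between 31.1 and 44.8 CPM. Monocyte markers overlapped there, at 20.3 to 39.4 CPM and 8.71 to 21.7 CPM, and so did mast cell markers, at 0.558 to 1.35 CPM and 0 to 5.56 CPM. The part of these shifts in the Ccl9 value was not tested.

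The next question was how the subsets differed without IC. In controls, Ccl3 was higher and Ccl6 lower in LYVE1+CX3CR1+ macrophages than in either MHCII+ subset, and Ccl5 was higher in the CD11c+ than in the CD11c- subset. For Ccl3 the LYVE1+CX3CR1+ libraries (95.8 to 163 CPM) lay above all MHCII+CD11c- (30.4 to 52.8 CPM) and MHCII+CD11c+ libraries (26.01 to 53.7 CPM). Its log2 fold changes were 1.6 ± 0.30 (adjusted p = 0.0058) and 1.54 ± 0.30 (adjusted p = 0.000757). The first call was lost without MHCII+CD11c- control library 3 (adjusted p = 0.0527; 0.00029 to 0.0527 over the alternatives).

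For Ccl6 the order was the opposite, with 384 to 538 CPM in LYVE1+CX3CR1+ controls against 1028 to 1396 CPM without and 1184 to 1629.7 CPM with CD11c. The log2 fold change of LYVE1+CX3CR1+ over MHCII+CD11c+ was -1.72 ± 0.30 (adjusted p = 0.000684), and this call held without any single library. Against MHCII+CD11c- macrophages it was -1.51 ± 0.30 (adjusted p = 0.0145). That call was lost without MHCII+CD11c- control library 1 or 3 or LYVE1+CX3CR1+ control library 1 or 3 (adjusted p = 0.0668, 0.0557, 0.101 and 0.0986) and without a filter on low counts (0.0605), in a range of 3.12e-05 to 0.101.

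Ccl9 passed only between LYVE1+CX3CR1+ and MHCII+CD11c+ controls, by -0.90 ± 0.24 (adjusted p = 0.0106; 0.0552 without LYVE1+CX3CR1+ control library 3, in a range of 0.00199 to 0.0552). Its order in controls was LYVE1+CX3CR1+ (622 ± 178 CPM), MHCII+CD11c- (759.5 ± 122) and MHCII+CD11c+ (1163 ± 18.4), and neither pair of neighbours in that order passed the test (adjusted p = 0.853 and 0.119). Ccl4 was at 53.0 ± 15.0, 40.0 ± 23.7 and 68.1 ± 42.5 CPM in the same groups (n = 3 each), and no pair passed (adjusted p between 0.476 and 0.954). Monocyte markers (5 of 5) summed to 20.3 to 39.4, 235 to 526 and 566 to 1184 CPM in these groups. Neutrophil markers (6 of 6) summed to 29.19 to 39.77, 39.79 to 199.2 and 74.3 to 270.5 CPM. The part of such cells in the Ccl3, Ccl6 and Ccl9 differences between controls was not tested.

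Ccl5 had 0 counts in all 3 LYVE1+CX3CR1+ control libraries. Set against the floor of 3 counts per library, it was at least 19.4-fold lower there than in MHCII+CD11c+ controls (adjusted p = 0.000111) and at least 2.07-fold lower than in MHCII+CD11c- controls (adjusted p = 0.0734; 0.0128 with DESeq2 and 0.0421 without a filter on low counts, in a range of 0.0128 to 0.27). These p-values are for a difference of any size and do not test the bounds. The first bound was 12.8 without MHCII+CD11c+ control library 2. The second was 1.07 without MHCII+CD11c- control library 2, since the other libraries of that group were at the floor as well (1 and 3 counts). Between the MHCII+ subsets, CD11c+ controls had more Ccl5, by 3.17 ± 0.89 (adjusted p = 0.0275). This last call was fragile and was lost without MHCII+CD11c- control library 1 or 3 or MHCII+CD11c+ control library 2 or 3 (adjusted p between 0.0584 and 0.125). It was also lost with voom weights (0.078), surrogate variables (0.279) and only the 2 groups (0.074), in a range of 0.00294 to 0.279.

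In controls, 2 of 5 members passed between LYVE1+CX3CR1+ and MHCII+CD11c- macrophages (1.56% of all genes), 4 of 5 between LYVE1+CX3CR1+ and MHCII+CD11c+ (15.2%) and 1 of 5 between MHCII+CD11c+ and MHCII+CD11c- (8.66%). With Ccl5 at its bound, the median log2 fold change of the members was -0.29, -0.90 and 0.62 in these comparisons, and that of all genes 0.00, 0.05 and -0.03.

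After IC no pair of subsets passed for Ccl3. The mean was 111 ± 15.6 CPM for LYVE1+CX3CR1+, 117 ± 44.1 for MHCII+CD11c- (n = 3 each) and 90.9 ± 24.9 for MHCII+CD11c+ libraries (n = 2), and all pairs overlapped (adjusted p between 0.63 and 0.929). The Ccl3 response of LYVE1+CX3CR1+ macrophages differed by -1.67 ± 0.42 from that of MHCII+CD11c- macrophages (adjusted p = 0.234). From that of MHCII+CD11c+ macrophages it differed by -1.25 ± 0.44 (adjusted p = 0.418). Neither interaction passed, so a change of order is not shown. Ccl6 differed between LYVE1+CX3CR1+ and MHCII+CD11c- macrophages by -2.09 ± 0.30 (adjusted p = 0.000663; -1.48 and adjusted p = 7.28e-05 without MHCII+CD11c- IC library 3). Against the MHCII+CD11c+ subset it was -0.95 ± 0.32 (adjusted p = 0.0679; 0.00548 with only the 2 groups and 0.0126 with surrogate variables, in a range of 0.00548 to 0.324).

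After IC, Ccl9 differed between LYVE1+CX3CR1+ and MHCII+CD11c- libraries by -0.94 ± 0.24 (adjusted p = 0.0196). Without MHCII+CD11c- IC library 3 the difference was -0.53 (adjusted p = 0.182), and the call was also lost without LYVE1+CX3CR1+ IC library 2 or 3 (0.0564 and 0.107), with voom weights (0.194), with only the 2 groups (0.0901) and without a filter on low counts (0.0552), in a range of 0.00388 to 0.194. Between LYVE1+CX3CR1+ and MHCII+CD11c+ macrophages Ccl9 differed by -0.16 ± 0.26 (adjusted p = 0.755).

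Ccl4 was lower after IC in every LYVE1+CX3CR1+ library (21.4 to 26.1 CPM) than in any MHCII+CD11c- (47.1 to 105 CPM) or MHCII+CD11c+ library (73.5 and 75.3 CPM). The log2 fold changes of -1.54 ± 0.56 and -1.62 ± 0.60 did not pass (adjusted p = 0.129 and 0.0996). Both passed with DESeq2 (0.0431 and 0.0446) and with only the 2 groups (0.0401 and 0.0111), in ranges of 0.0401 to 0.408 and 0.0111 to 0.368.

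After IC, Ccl5 of LYVE1+CX3CR1+ macrophages was at least 8.09-fold lower than that of the CD11c- subset (adjusted p = 0.00908) and at least 27.9-fold lower than that of the CD11c+ subset (adjusted p = 0.000412), the second bound being 17.5 without MHCII+CD11c+ IC library 2. The first of these calls was lost with voom weights (0.101) and with only the 2 groups (0.0879), in a range of 0.00211 to 0.101. Here too the p-values are for a difference of any size and do not test the bounds. The CD11c+ libraries (17.9 and 39.2 CPM) lay above the CD11c- libraries (4.95 to 9.98 CPM), and this difference did not pass (1.78 ± 0.86, adjusted p = 0.357; 0.0339 with only the 2 groups and 0.0468 with voom weights, in a range of 0.0339 to 1).

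After IC, 3 of 5 members passed between LYVE1+CX3CR1+ and MHCII+CD11c- macrophages (5.54% of all genes) and 1 of 5 between LYVE1+CX3CR1+ and MHCII+CD11c+ (11.9%). Between MHCII+CD11c+ and MHCII+CD11c- macrophages 0 of 5 passed with edgeR (4.03% of all genes). There, Ccl6 and Ccl9 had an unadjusted p under 0.05 (log2 fold changes -1.14 ± 0.34 and -0.78 ± 0.27, adjusted p = 0.0761 and 0.125), DESeq2 called Ccl6 and voom called Ccl5. Over all genes, 2140 of 15272 had an unadjusted p under 0.05 by edgeR, DESeq2 called 1028 of 13525 and voom 1783 of 15272. The Ccl6 difference passed without MHCII+CD11c- IC library 1 or 2 (adjusted p = 0.00764 and 0.048, in a range of 0.00764 to 0.726), and that of Ccl9 without library 1 (0.0322, in a range of 0.0322 to 0.606). With Ccl5 at its bound, the median log2 fold change of the members was -1.54, -0.95 and -0.36 in these comparisons, and that of all genes -0.14, -0.12 and -0.03.

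**Figure D3:**
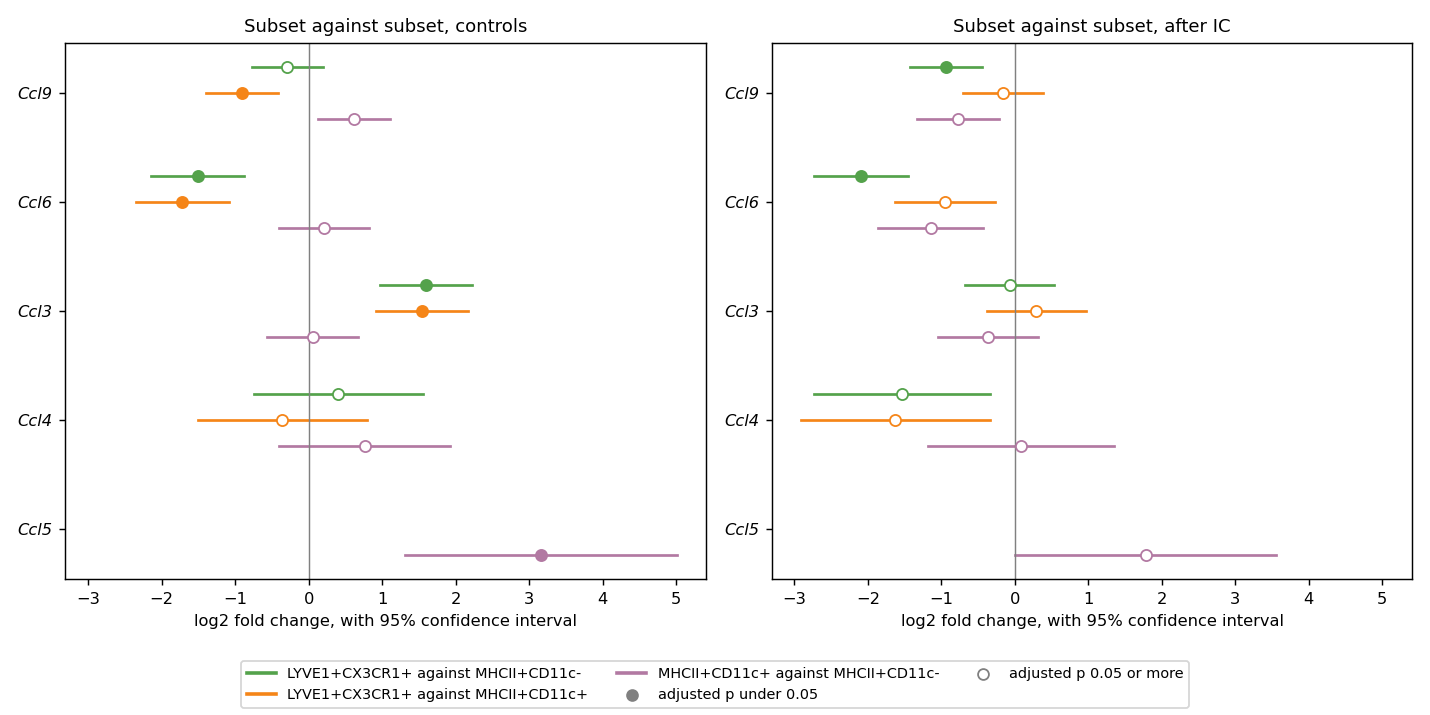
Log2 fold change of each chemokine gene between pairs of macrophage subsets, with its 95% confidence interval (horizontal axis), in controls (left) and after IC (right). Filled points had an adjusted p under 0.05. Ccl3 lay at 1.6 and 1.54 in controls for LYVE1+CX3CR1+ against the MHCII+ subsets and at -0.07 and 0.29 after IC. The matching interaction tests did not pass. Pairs with Ccl5 at the floor are left out.

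The balance between paired members was also read within each library, where library size plays no part. These are ratios of counts, not of levels per length. Ccl6 had fewer counts than Ccl9 in all 6 LYVE1+CX3CR1+ libraries, with a ratio of 0.652 to 0.809 in controls and 0.556 to 0.646 after IC. For MHCII+CD11c- libraries the ratio was 1.14 to 1.98 in controls and 1.11 to 1.48 after IC, and in MHCII+CD11c+ macrophages 1.03 to 1.41 and 0.899 to 1.15. No LYVE1+CX3CR1+ library overlapped with a library of the other subsets. The Ccl3 to Ccl4 ratio of LYVE1+CX3CR1+ macrophages was 1.76 to 3.02 without IC and 3.63 to 5.265 with it, again with no overlap. It was 0.595 to 3.02 and 1.59 to 1.83 without CD11c, and 0.509 to 1.19 and 0.998 to 1.44 with it. The ratios were not tested, and how many other gene pairs separate in this way was not counted. Neither Ccl3 nor Ccl4 passed by edgeR after IC in LYVE1+CX3CR1+ macrophages (adjusted p = 0.888 and 0.384). An IC effect on their ratio is therefore not shown.

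**Figure D4:**
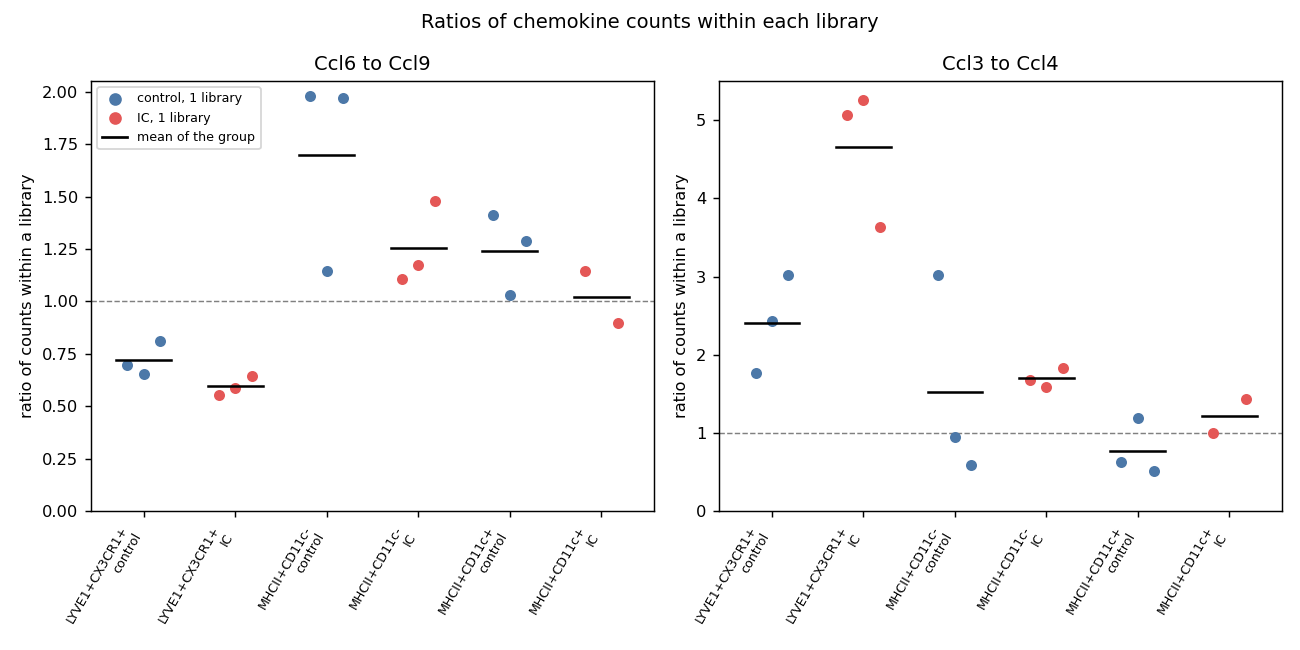
Ratio of counts within a library (vertical axis from 0) for Ccl6 to Ccl9 (left) and Ccl3 to Ccl4 (right) in the 6 groups. Points are libraries, black lines are group means and the dashed line marks equal counts. LYVE1+CX3CR1+ libraries had the lowest Ccl6 to Ccl9 ratios (0.556 to 0.809), and after IC the highest Ccl3 to Ccl4 ratios (3.63 to 5.265). The ratios were not tested.

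Ccl5 is a gene of T and NK cells and platelets, so markers of other cells were set beside it. Of 8 T and NK cell markers 3 were in the table (Cd3d, Cd8a and Klrb1c), and they summed to at most 4.33 CPM in any library, while Ccl5 reached 39.2 CPM. The library with the highest Ccl5, MHCII+CD11c+ IC library 2, had 214 counts of Ccl5 and 5 of these markers. Library 1 of that group had 122 and 19. Of the 3 markers only Cd8a was at the floor in that group, and Cd3d and Klrb1c were not. Platelet markers (5 of 5) summed to between 0.378 and 15.1 CPM over all libraries, and to 3.30 and 3.67 CPM in the MHCII+CD11c+ IC group, which had the highest Ccl5.

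Conventional dendritic cell and monocyte marker sums, like Ccl5, had their highest group means in the 2 MHCII+CD11c+ groups. Single libraries did not all follow this. MHCII+CD11c+ control library 1 had 2.77 CPM of Ccl5, under every MHCII+CD11c- IC library (4.95 to 9.98 CPM), and a monocyte marker sum of 1184 CPM. Conventional dendritic cell markers of controls summed to 11.3 to 14.9 CPM for LYVE1+CX3CR1+, 19.97 to 71.6 for MHCII+CD11c- and 83.0 to 147 for MHCII+CD11c+ libraries, and to 6.61 to 10.8, 20.4 to 26.2 and 156 to 201 CPM after IC. Monocyte markers summed to 20.3 to 39.4, 235 to 526 and 566 to 1184 CPM in the same controls. Mast cell markers in the table (4 of 5) summed to 0.425 to 3.40 CPM in MHCII+CD11c+ controls and to 18.8 and 35.7 CPM in that subset after IC. The part of any of these cells, T and NK cells included, in the Ccl5 differences between subsets was not tested.

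**Figure D5:**
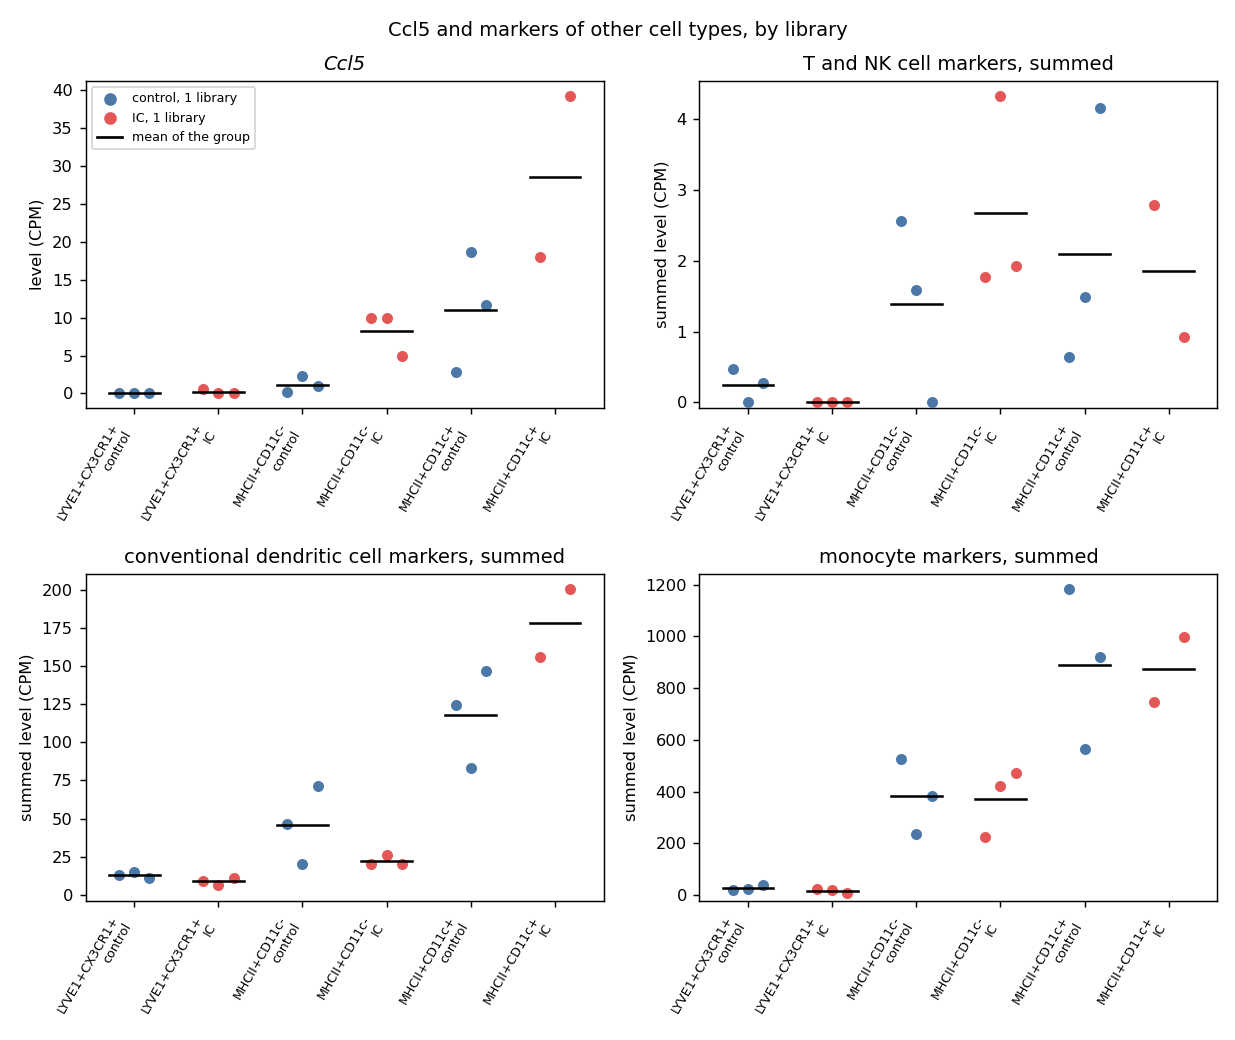
Level of Ccl5 and summed levels of T and NK cell, conventional dendritic cell and monocyte markers (CPM, vertical axes) in each library. Points are libraries and black lines are group means. T and NK cell markers (3 of 8 in the table) stayed at or under 4.33 CPM. Dendritic cell and monocyte markers, like Ccl5, had their highest group means in MHCII+CD11c+ macrophages. The part of any of these cells in Ccl5 was not tested.

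The receptor genes Ccr1 and Ccr3 were both tested. Ccr1, the receptor of CCL6 and CCL9, had means between 91.0 ± 49.3 CPM (MHCII+CD11c+ controls) and 224 ± 20.8 CPM (LYVE1+CX3CR1+ IC). Ccr3 had means under 4 CPM in all groups.

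Neither Ccr1 nor Ccr3 passed in the IC comparisons, and neither had an unadjusted p under 0.05 by edgeR or a call by DESeq2 or voom. For Ccr1 the log2 fold changes were 0.58 ± 0.35 for LYVE1+CX3CR1+, 0.54 ± 0.35 for MHCII+CD11c- and 0.05 ± 0.39 for MHCII+CD11c+ cells (adjusted p = 0.491, 0.692 and 1). For Ccr3 they were -1.59 ± 1.31, 0.80 ± 1.21 and 0.37 ± 1.401 (adjusted p = 0.646, 0.932 and 1). Between the subsets of controls neither passed with edgeR or DESeq2 or had an unadjusted p under 0.05 by edgeR, and voom called Ccr1 between LYVE1+CX3CR1+ and MHCII+CD11c+ macrophages. Between these subsets after IC the Ccr1 difference was 1.25 ± 0.40 (adjusted p = 0.053 by edgeR, with an unadjusted p of 0.00649), and DESeq2 and voom called it.

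Of the other CC chemokines, 11 of 16 were tested. After IC, Ccl2, the main monocyte attractant of the MCP group, fell in LYVE1+CX3CR1+ macrophages by 1.30 ± 0.22 on the log2 scale (239.9 ± 60.1 to 97.0 ± 9.30 CPM, adjusted p = 0.00332), a call that DESeq2 also made and voom did not. Ccl24, an eosinophil attractant, rose in MHCII+CD11c- macrophages by 1.595 ± 0.32 (223 ± 92.6 to 672 ± 231 CPM, adjusted p = 0.0252). In MHCII+CD11c+ macrophages 0 of 11 passed by edgeR, 4 had an unadjusted p under 0.05 (795 of all 15272 genes), DESeq2 called 1 (Ccl8) and voom 0. In LYVE1+CX3CR1+ macrophages edgeR gave 4 of the 11 at an unadjusted p under 0.05 (Ccl2, Ccl7, Ccl8 and Ccl12, against 2159 of all 15272 genes). DESeq2 called Ccl7 beside Ccl2 and voom 0. In MHCII+CD11c- macrophages edgeR gave 2 (Ccl12 and Ccl24, against 1526 of all 15272 genes), DESeq2 called Ccl24 and voom both. In controls 0 were higher and 2 lower in LYVE1+CX3CR1+ against MHCII+CD11c- macrophages (1.56% of all genes passed), 3 were higher and 2 lower against MHCII+CD11c+ (15.2%), and with CD11c 2 were higher and 5 lower than without (8.66%).

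Signalling genes below the receptors (13 of 13 tested, among them G protein, arrestin and phosphoinositide 3-kinase genes) gave 0 calls by edgeR in the 3 IC comparisons. They gave 1, 3 and 1 genes at an unadjusted p under 0.05 (over all genes 2159, 1526 and 795 of 15272). DESeq2 called 1 (Arrb1, in MHCII+CD11c- macrophages) and voom 0. In LYVE1+CX3CR1+ controls 1 was higher and 2 lower compared with the CD11c- subset (1.56% of all genes passed) and 4 higher and 3 lower compared with the CD11c+ subset (15.2%). With CD11c, 3 were higher and 3 lower than without (8.66%).

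Proteases that trim the ends of these chemokines, a step that changes their activity, had 4 of 6 genes tested and 0 calls by edgeR after IC. There were 1, 0 and 2 genes at an unadjusted p under 0.05 in the 3 subsets (over all genes 2159, 1526 and 795 of 15272). DESeq2 called 1 (Mmp9, in LYVE1+CX3CR1+ macrophages) and voom 0. In controls edgeR called Dpp4, which cleaves CCL5 among other substrates, and Mmp12. DESeq2 and voom also called Mmp9 between LYVE1+CX3CR1+ and MHCII+CD11c- controls, as did DESeq2 between both MHCII+ subsets. LYVE1+CX3CR1+ macrophages had less Dpp4 than the CD11c- (adjusted p = 0.000578) and CD11c+ subsets (adjusted p = 1.36e-06) and less Mmp12 than the CD11c+ subset (adjusted p = 6.29e-05). Dpp4 and Mmp12 were both higher with than without CD11c (adjusted p = 0.0147 and 0.000206).

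Immediate early genes, which rise within minutes of activation and during tissue digestion, had 14 of 14 tested. After IC 0 passed by edgeR in each subset, with 4, 2 and 4 genes at an unadjusted p under 0.05 (over all genes 2159, 1526 and 795 of 15272). DESeq2 called 2, 0 and 0 and voom 0, 1 and 0. In controls 0 passed between LYVE1+CX3CR1+ and MHCII+CD11c- macrophages by edgeR (1.56% of all genes passed). There, 3 had an unadjusted p under 0.05 (1564 of all 15272 genes). DESeq2 called 1 and voom 2 of the list (510 of 13082 and 977 of 15272 over all genes). Against MHCII+CD11c+ macrophages 4 (Atf3, Egr1, Ier3 and Jun) were higher in LYVE1+CX3CR1+ macrophages (15.2% of all genes passed). With CD11c, 3 (Egr1, Ier3 and Jun) were lower than without (8.66%). Ccl3 was higher in LYVE1+CX3CR1+ controls in both of the first 2 comparisons (log2 fold changes 1.6 and 1.54). It did not pass in the third (0.06 ± 0.30, adjusted p = 0.948). The part of tissue digestion in the Ccl3 values was not tested.

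The genes outside the 5 members with the pattern most like each were found over the 17 libraries, as the smallest root mean square difference of centred log2 CPM. For Ccl9 they were Jdp2 (0.35), Gda (0.38) and Il2rg (0.42), and Ccl6, counted among all genes, ranked 17 (0.555). For Ccl6 they were Gda (0.53), Sdc4 (0.55) and Map3k6 (0.564), while Ccl9, counted among all genes, ranked 3 (0.555). Gda, a guanine deaminase gene on chromosome 19, was thus near both. It rose after IC in LYVE1+CX3CR1+ macrophages by 1.46 ± 0.20 (196 to 539 CPM, adjusted p = 0.000387) and in MHCII+CD11c- macrophages by 1.22 ± 0.19 (354 to 822 CPM, adjusted p = 0.00195).

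For Ccl3 the closest genes were Ppp2r5b (0.46), Card19 (0.48) and Rnf115 (0.48). Ccl4, its neighbour on the chromosome, ranked 6100 of the 15272 genes (0.99). For Ccl4 the closest were Carf (0.53), F830112A20Rik (0.61) and Usp45 (0.62), and for Ccl5 Met (0.84), F7 (0.85) and Fgl2 (0.94). Fgl2 rose after IC in MHCII+CD11c- macrophages (1.59 ± 0.22, adjusted p = 0.000526). All of these libraries share 6 groups, so closeness in part restates the group means.

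Within 200 kb of the members lay 25 other annotated genes, of which 14 were in the table and 10 were tested. Wfdc17, a small secreted whey acidic protein gene on the far side of Ccl4 (83703991 to 83706268, plus strand), was the only one of the 10 to pass after IC. It rose by 1.29 ± 0.24 in LYVE1+CX3CR1+ (adjusted p = 0.0107) and by 1.43 ± 0.25 in MHCII+CD11c- macrophages (adjusted p = 0.00406), and its value in MHCII+CD11c+ macrophages was 0.35 ± 0.27 (adjusted p = 1). E230016K23Rik, which overlaps Ccl6, had log2 fold changes of 1.90 ± 0.97, 0.36 ± 0.86 and -0.46 ± 0.92 in the 3 subsets (adjusted p = 0.387, 0.957 and 1). Taf15 and Ap2b1, on the side of Ccl5, did not pass in any subset (adjusted p of at least 0.415 and 0.505). The other 6 tested neighbours, 1700020L24Rik, Mmp28, Heatr9, Wfdc18, Wfdc21 and Heatr6, had at most 191 counts in a library and adjusted p of at least 0.5.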

How the data were processed

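The authors trimmed reads with Trim Galore, checked them with FastQC, aligned them to mm10 with HISAT2 and counted them with featureCounts, per the labels and methods. Versions, annotation, and use of strand and of reads with several alignments are not given in the sources used here. The authors tested with DESeq2 and removed a batch effect that they did not name with sva. The deposited values are raw counts per gene symbol, whole numbers without normalization. Libraries were made from 5 ng of RNA. The table of each library was identical to its column of the joint table (17 of 17), and 1 further column matched no sample, summed to 0 and was not used. No library was a repeat of another: chi-square over degrees of freedom between libraries of 1 group was at least 7.39 (genes with at least 20 counts). Lyve1 in a label was read as LYVE1+CX3CR1+, IAIE as MHCII+CD11c- and CD11c as MHCII+CD11c+.

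Differences were tested with edgeR 4.0.16 (R 4.3.3): filterByExpr (minimum count 10), TMM, 1 mean for each of 6 groups, robust glmQLFit with 11 residual degrees of freedom, glmQLFTest, and Benjamini-Hochberg adjustment over the 15272 genes tested. A gene passed, or was called, at an adjusted p under 0.05. Alternatives used DESeq2 1.42.0, voom of limma 3.58.1, sva 3.50.0 (5 surrogate variables), RLE scaling, no filter, equal depth, only the groups compared, replicate blocks and leaving out each library. The fit was also run on counts simulated from its own model, which cannot show whether that model suits these libraries. A library with at most 3 counts is at the floor, and a fold against a group at the floor is a bound; floors and bounds account for counting error alone, because PCR copies are not separate molecules. Totals set the floor between 0.414 and 1.30 CPM. Per-kilobase levels used the union of exons of GENCODE M21. Promoters were aligned with Biopython 1.88.

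Named were the 5 members throughout, list genes called after IC or in an interaction, tested receptors (1 item of that list is not reported here), the 3 genes most like each member and tested genes within 200 kb. Arrb1, Mmp9, Ccl7, Ccl8, Ccl12, Dpp4, Mmp12, Atf3, Egr1, Ier3 and Jun were named after their values were seen. Members and lists were chosen with earlier results of these data known.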

Additional observations from a re-analysis of the deposited data

How the results depend on the processing

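Of 190 counts of members called under an alternative, 166 were within 1.5 times the main count or equal to it, and the cause of the other 24 was not tested. The count after IC in LYVE1+CX3CR1+ macrophages went from 1 to 2 with DESeq2 and with only the groups compared. Without 1 library it was 1 to 1 there, 1 to 3 in MHCII+CD11c- and 0 to 0 in MHCII+CD11c+ macrophages. In controls, leaving out 1 library gave 0 to 2 between LYVE1+CX3CR1+ and MHCII+CD11c-, 3 to 4 between LYVE1+CX3CR1+ and MHCII+CD11c+, and 0 to 1 between MHCII+CD11c+ and MHCII+CD11c- macrophages, where the count was also 0 with only the groups compared, voom and surrogate variables. After IC it gave 2 to 3, 1 to 1 and 0 to 2 for the same pairs. There the first count was 1 with voom, the second 3 with only the groups compared and 2 with surrogate variables and DESeq2, and the third 1 with only the groups compared, voom and DESeq2. The 3 counts of interactions were 0 to 0.

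With the replicate number as a replicate block the counts after IC were 1, 3 and 0, and no call of a member changed. With a replicate block within each treatment, Ccl6 passed between LYVE1+CX3CR1+ and MHCII+CD11c+ macrophages after IC (-1.11, adjusted p = 0.0474; 0.00548 to 0.324 over the alternatives), a count of 2 against 1. Whether the numbers pair the libraries is not known. Same-numbered libraries of a treatment correlated at 0.00129 to 0.286, highest for control library 2 of MHCII+CD11c- and MHCII+CD11c+ macrophages. IC and control libraries of the same number correlated at -0.153 to 0.0817. Libraries of different numbers were not compared, so a shared mouse or day cannot be told from these values.

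Signs turned only for values that had not passed. Ccl3 after IC in LYVE1+CX3CR1+ macrophages was 0.0459 with voom and -0.28 to 0.0948 without 1 library (above 0 without control replicate 2). Ccl3 between MHCII+CD11c+ and MHCII+CD11c- controls was -0.0174 with voom, -0.37 with surrogate variables and -0.14 to 0.32 without 1 library (under 0 without MHCII+CD11c+ replicate 1 or 3 or MHCII+CD11c- replicate 3). Ccl3 between LYVE1+CX3CR1+ and MHCII+CD11c- macrophages after IC was 0.0019 with RLE, 0.0016 with DESeq2 and -0.25 to 0.28 without 1 library (above 0 without MHCII+CD11c- replicate 2 or LYVE1+CX3CR1+ replicate 3). Without 1 library, Ccl4 after IC in MHCII+CD11c+ macrophages was -0.29 to 0.59, the lowest without control replicate 2. In controls, LYVE1+CX3CR1+ against MHCII+CD11c-, it was -0.0185 to 0.74 (the lowest without MHCII+CD11c- replicate 1), and against MHCII+CD11c+ -0.79 to 0.0986 (the highest without MHCII+CD11c+ replicate 3) and 0.31 with surrogate variables. Between the MHCII+ subsets after IC it was -0.13 to 0.51, under 0 without MHCII+CD11c- replicate 1 or 3. The Ccl6 interaction of LYVE1+CX3CR1+ and MHCII+CD11c- was -0.81 to 0.0301, the highest without MHCII+CD11c- IC replicate 3.

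Depth limited Ccl5, with at most 3 counts in 8 of 17 libraries. The bounds of its fold without each library were added after seeing the data. Groups had 2 or 3 libraries, and the common biological coefficient of variation over all genes was 45.1%.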
